A study of Mus musculus with 6 samples.

Results

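The Groucho/TLE family comprises transcriptional corepressors, and its members Tle1, Tle2, Tle3, Tle4, Tle5 and Tle6 were followed in newborn mouse cortex that carries a Zbtb20 transgene. All probe sets whose only gene symbol in the platform annotation was one of these 6 names were taken, which gave 12 probe sets for 6 genes out of 34945 probe sets for 18193 named genes. The members were chosen by name, every probe set included, and the family was selected on differences between D6/Zbtb20S and wildtype tissue that Tle1, Tle3 and Tle4 had already shown on these same arrays. The differences between genotypes below are therefore a description of the family, and no p-value is given for a member.

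The 2 groups were D6/Zbtb20S transgenic mice and wildtype littermates, both on the C57BL/6 background and both sampled on postnatal day 1. From each, the subiculum and the retrosplenial cortex, which the submitters describe as transformed towards the hippocampal field CA1 in the transgenic animals, were dissected together, and mRNA was measured on Affymetrix 3' expression arrays. Each genotype had 3 arrays and each array held a pool of 7 animals. The sources used here do not say whether the pools came from separate litters, so the SDs measure the spread between these pools only. The standard errors are moderated ones, which also draw on the spread of all probe sets. D6 is known as an enhancer of the mouse Dach1 gene that is active in the developing cortex and hippocampus, and Zbtb20 is a zinc finger repressor of the developing hippocampus. Every value is a log2 probe set signal as deposited. A probe set's level cannot be set against another probe set's, so levels are compared between genotypes within a probe set only.

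TLE proteins do not bind DNA themselves. DNA-binding repressors such as the HES, RUNX, TCF/LEF and forkhead factors recruit them through short peptide motifs that dock on a WD40 propeller or, for TCF/LEF, through the amino-terminal Q domain, which also lets TLE proteins form oligomers, and the complex then works with histone deacetylases. At Wnt targets beta-catenin displaces TLE from TCF/LEF factors and turns repression into activation. Tle1 to Tle4 encode the full-length corepressors, Tle5 (also known as Aes) a short protein without the WD40 propeller that modulates the others, and Tle6 a divergent relative best known from the mouse oocyte. In the cortex Tle4 is a widely used marker of corticothalamic neurons of layer VI.

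The start-site windows of the 3 members with called probe sets are shown here, from 250 bases before to 50 bases after the start (RefSeq, GRCm38.p6), with capitals for sites of factors that recruit TLE proteins. The windows are chr4:72200844-72201143 on the minus strand for Tle1, chr9:61372116-61372415 on the plus strand for Tle3 and chr19:14598134-14598433 on the minus strand for Tle4.
Tle1: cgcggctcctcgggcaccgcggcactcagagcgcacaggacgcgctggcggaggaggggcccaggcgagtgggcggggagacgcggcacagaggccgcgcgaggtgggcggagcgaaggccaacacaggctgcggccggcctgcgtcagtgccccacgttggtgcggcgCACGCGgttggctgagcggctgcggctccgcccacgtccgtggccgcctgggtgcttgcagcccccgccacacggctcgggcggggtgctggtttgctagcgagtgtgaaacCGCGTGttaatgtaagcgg
Tle3: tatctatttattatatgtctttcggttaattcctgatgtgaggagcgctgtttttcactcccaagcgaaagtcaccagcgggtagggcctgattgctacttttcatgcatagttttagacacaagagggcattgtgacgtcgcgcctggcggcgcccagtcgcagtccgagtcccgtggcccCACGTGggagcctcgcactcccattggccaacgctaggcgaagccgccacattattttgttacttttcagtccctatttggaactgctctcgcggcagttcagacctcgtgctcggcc
Tle4: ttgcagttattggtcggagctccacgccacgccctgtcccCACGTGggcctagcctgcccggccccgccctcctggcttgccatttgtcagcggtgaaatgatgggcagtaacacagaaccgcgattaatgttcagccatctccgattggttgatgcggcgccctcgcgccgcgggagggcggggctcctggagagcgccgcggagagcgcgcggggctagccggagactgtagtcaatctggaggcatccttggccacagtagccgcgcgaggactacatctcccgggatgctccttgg

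The motifs searched, on both strands, were CACGTG (an E-box that HES and other bHLH factors can bind), CACGCG (a HES site), CTTTGA or CTTTGT (the TCF/LEF core) and TGTGGT or TGCGGT (the RUNX core), and none of the words found overlapped. The Tle3 window held CACGTG starting at position -68 from the start site, and the Tle4 window held it at -210. Of all 32851 windows in the table, 7.15% held CACGTG. The Tle1 window held the HES site CACGCG at position -81 and its reverse complement, CGCGTG, at position 31, and 9.27% of all windows held that site. No TCF/LEF or RUNX core was found in any of the 7 windows that the table gave for 5 of the 6 genes, against 31.2% and 22.4% of all windows. A match describes letters in a window and is not a binding site, and no match says only that these letters are absent from it. The windows that are not printed did not follow the calls. Tle6, which was not called, held CACGTG at -183 and -119 in 1 of its 2 windows, while the second Tle4 window, the Tle2 window and the other Tle6 window held 0 of the sites searched. Of the other members, Tle5, Tle2 and Tle6 lie side by side on chromosome 10, with 1 other gene of the table between Tle5 and Tle2, and the Tle2 and Tle6 genes overlap on opposite strands. Tle1, Tle3 and Tle4 lie on chromosomes 4, 9 and 19.

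The arrays separated by genotype. Pearson's r over all probe sets was 0.994 to 0.997 among D6/Zbtb20S arrays, 0.992 to 0.996 among wildtype arrays and 0.985 to 0.990 between genotypes. Of 9 Zbtb20 probe sets 1 was called higher, 1422064_a_at, with a log2 signal of 8.88, 9.10 and 8.94 on the D6/Zbtb20S arrays, against 6.44, 5.84 and 7.64 on wildtype replicates 1, 2 and 3 (adjusted p = 0.00904). All 9 were highest among wildtype arrays in replicate 3, with a median excess of 1.06. For the actin control probe sets, the 3' signal exceeded the 5' signal by 0.80 to 0.91 on D6/Zbtb20S arrays and by 0.53 to 1.31 on wildtype arrays, with replicate 3 at the top. Results that rest on wildtype replicate 3 are therefore given without it as well. Of the cortical excitatory neuron markers 7 of 8 were measured, and none lay under the array median in both groups.

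Across the family, 4 probe sets were called higher and 3 lower in D6/Zbtb20S tissue, and 5 were not called. They belonged to 3 genes. Both Tle1 probe sets and 2 of 4 Tle3 probe sets were higher, while all 3 Tle4 probe sets were lower. A call is a limma adjusted p under 0.05 over all 45037 probe sets, of which 3.40% were called higher and 2.11% lower. Since the family was selected on this contrast, nothing is read from the count against that background. The arrays of the 2 genotypes did not overlap on 10 of the 12 probe sets, against 23.7% of all probe sets. The median difference over the 12 probe sets was 0.09, against -0.02 over all probe sets. The counts of 4 higher and 3 lower were unchanged without wildtype replicate 3. The count of lower probe sets was 1 without wildtype replicate 2, without D6/Zbtb20S replicate 1 or without D6/Zbtb20S replicate 2.

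**Figure D1:**
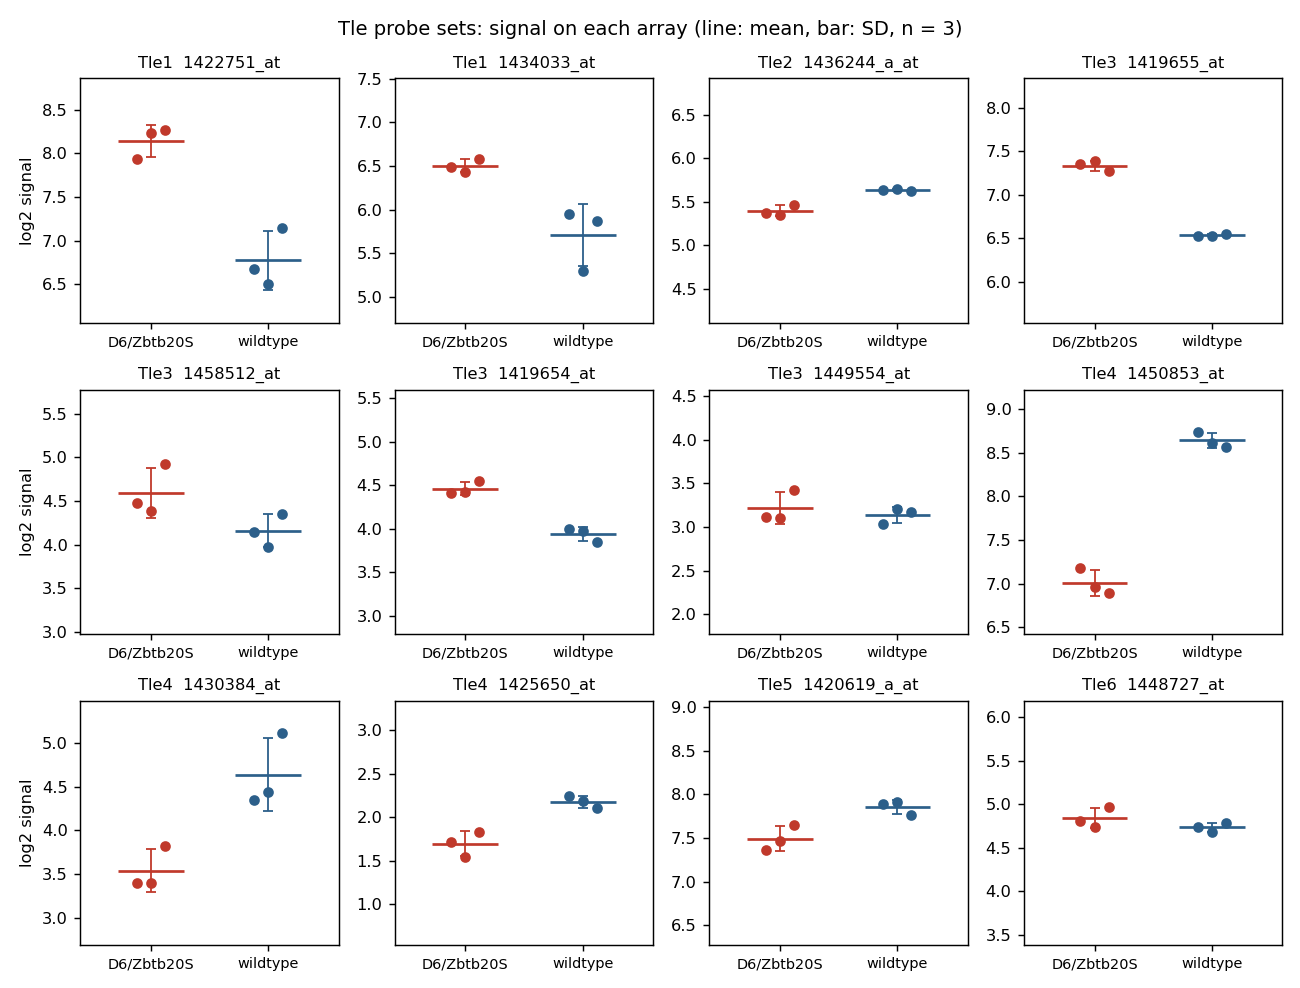
Log2 signal of each of the 12 Tle probe sets on each array (points), with the group mean (line) and SD (bar), n = 3 arrays per genotype, D6/Zbtb20S left and wildtype right. All panels span the same height on the log2 axis. The 3 Tle4 panels show the D6/Zbtb20S arrays below the wildtype arrays, and the Tle1 panels show them above.

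Tle4 had the largest difference of the family. On 1450853_at the D6/Zbtb20S arrays read 7.18, 6.96 and 6.89, against 8.74, 8.61 and 8.57 on the wildtype arrays. The groups did not overlap, and the gap between the highest D6/Zbtb20S and the lowest wildtype array was 1.39. The difference was -1.63 ± 0.10 (SE, n = 3 and 3), a 3.10-fold lower signal, and it ranked number 83 from the lowest among the 45037 probe sets. It kept its call whichever array was left out, and without wildtype replicate 3 it was -1.67 ± 0.11.

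The other Tle4 probe sets also fell. On 1430384_at the D6/Zbtb20S arrays read 3.39, 3.39 and 3.82, against 4.35, 4.44 and 5.12 on the wildtype arrays. The D6/Zbtb20S arrays lay under the array median there, and the highest wildtype value was that of replicate 3. The difference was -1.10 ± 0.21, or -0.86 ± 0.14 without wildtype replicate 3. On 1425650_at, which lay under the array median on all 6 arrays, they read 1.71, 1.55 and 1.83 in D6/Zbtb20S and 2.25, 2.18 and 2.10 in wildtype tissue, a difference of -0.48 ± 0.09. Folds near the floor of the array may be compressed, and the 3 Tle4 differences spanned -1.63 to -0.48. The call of 1430384_at was lost without D6/Zbtb20S replicate 1 or 2 or wildtype replicate 2. That of 1425650_at was lost without any of those arrays or without wildtype replicate 1.

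Tle1, a corepressor that keeps forebrain progenitors from differentiating in the mouse, moved the other way. On 1422751_at the D6/Zbtb20S arrays read 7.94, 8.23 and 8.27, against 6.67, 6.50 and 7.15 on the wildtype arrays, with a gap of 0.79 between the groups. The difference was 1.37 ± 0.17, a 2.59-fold higher signal, which ranked number 167 from the highest. The highest wildtype array was replicate 3, 0.56 above the mean of the other wildtype arrays, and without it the difference was 1.56 ± 0.13. The second probe set, 1434033_at, read 6.49, 6.43 and 6.58 in D6/Zbtb20S tissue and 5.95, 5.30 and 5.87 in wildtype tissue. Here wildtype replicate 2 was the lowest array, and the difference was 0.79 ± 0.16, or 1.73-fold. It lost its call when any 1 of the D6/Zbtb20S arrays was left out, while 1422751_at kept its call whichever 1 of the 6 arrays was left out. With an ordinary linear model, which does not share the spread across probe sets, both Tle1 probe sets lost their call.

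Tle3, a corepressor of Wnt target genes, was higher on its brightest probe set with little spread. On 1419655_at the D6/Zbtb20S arrays read 7.35, 7.38 and 7.27, against 6.53, 6.53 and 6.55 on the wildtype arrays. The difference was 0.80 ± 0.08, or 1.74-fold, with a gap of 0.72 between groups whose SDs were 0.06 and 0.01. On 1419654_at the values were 4.41, 4.42 and 4.54 in D6/Zbtb20S and 3.99, 3.97 and 3.84 in wildtype tissue, a difference of 0.52 ± 0.08. Both kept their call whichever array was left out.

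The 2 remaining Tle3 probe sets were not called. On 1458512_at the D6/Zbtb20S arrays read 4.48, 4.39 and 4.92 and the wildtype arrays 4.15, 3.98 and 4.35, a difference of 0.44 ± 0.15 with a gap of only 0.03. On 1449554_at they read 3.11, 3.11 and 3.43 against 3.04, 3.21 and 3.17. There the groups overlapped, all 6 arrays lay under the array median, and the difference was 0.08 ± 0.11. The Tle3 probe sets thus gave differences from 0.08 to 0.80, all positive. As the mean of its probe sets Tle3 was at 0.46 ± 0.08, Tle1 at 1.08 ± 0.14 and Tle4 at -1.07 ± 0.08.

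**Figure D2:**
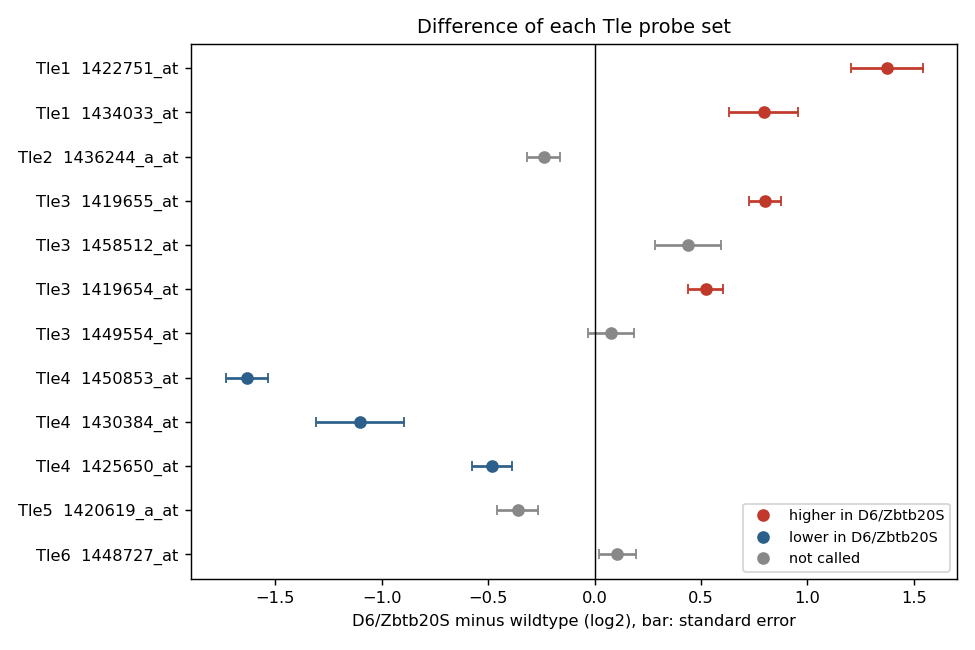
Difference between genotypes (D6/Zbtb20S minus wildtype, log2) for each Tle probe set, with its standard error from the limma fit. Tle1 and Tle3 lie right of 0, from 0.08 to 1.37, and Tle4 lies left of it, from -1.63 to -0.48.

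The 3 members that neighbour each other on chromosome 10 had 1 probe set each, and no call was made on them. Tle5, the short family member, read 7.36, 7.47 and 7.65 on the D6/Zbtb20S arrays, against 7.89, 7.92 and 7.76 on the wildtype arrays, on 1420619_a_at. The groups did not overlap, by a gap of 0.11, and the difference was -0.36 ± 0.10. Tle5 was called lower without D6/Zbtb20S replicate 3, where the difference was -0.44. Tle2, a full-length corepressor, read 5.37, 5.35 and 5.47 against 5.63, 5.65 and 5.63 on 1436244_a_at. Its arrays did not overlap either, with a gap of 0.16 and a difference of -0.24 ± 0.08. Tle6 read 4.81, 4.74 and 4.97 against 4.74, 4.68 and 4.79 on 1448727_at, where the groups overlapped and the difference was 0.11 ± 0.09. A missed threshold does not show that Tle2, Tle5 or Tle6 were alike in the 2 genotypes.

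**Figure D3:**
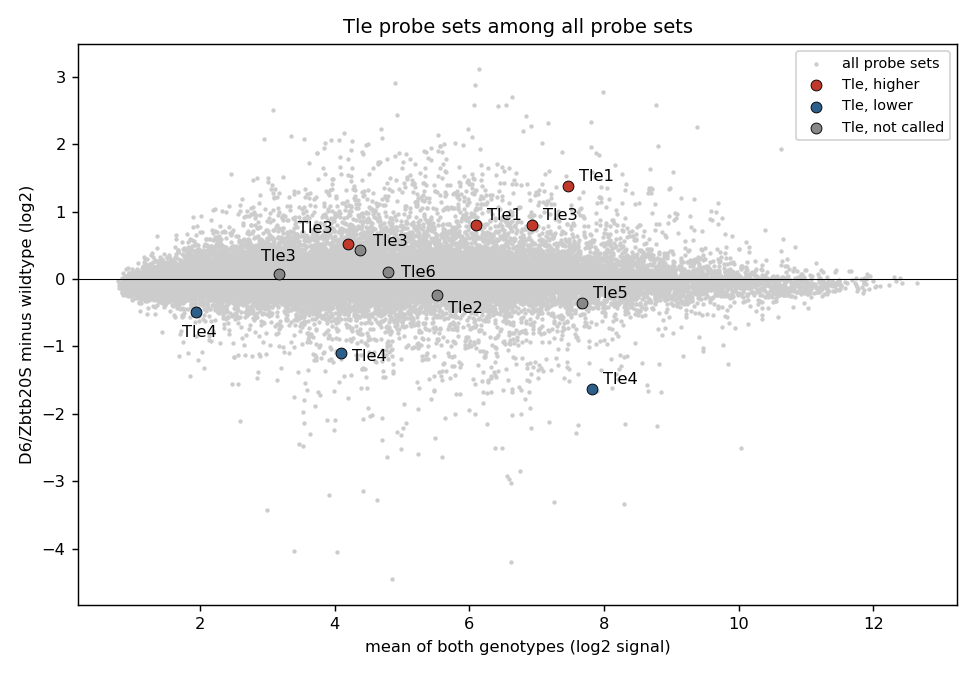
All 45037 probe sets (grey) by mean log2 signal over both genotypes and by difference (D6/Zbtb20S minus wildtype, log2), with the 12 Tle probe sets marked by call. The brightest Tle4 probe set lies at -1.63 and the brightest Tle1 probe set at 1.37, outside the bulk of the grey points.

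By likeness over the 6 arrays, each member's brightest probe set was set against 18187 other genes, each by its brightest probe set. The genes most like Tle4 were Sfrp1, a secreted Wnt antagonist (Pearson's r = 0.9995), Rspo2, a secreted Wnt agonist (r = 0.9978), and Cemip2 (r = 0.9968). Rspo2 was 4.01-fold lower in D6/Zbtb20S tissue on that probe set, and Sfrp1 had a difference of -0.78 ± 0.08. The second Rspo2 probe set was not called (-0.14 ± 0.09), and of the 5 Sfrp1 probe sets 2 were called lower. The genes most like Tle1 were Lrp8, a reelin receptor (r = 0.9982), St6galnac5 and Pabpc1. For Tle3 they were the adhesion gene Nectin3 (r = 0.9982), the claudin gene Cldn1 and Zfp608. For Tle2 they were Sptbn4, Oprd1 and Slc4a3, for Tle5 Syt3, Ptms and Zfhx2os, and for Tle6 Aldh4a1, Dlx6os2 and Igf2r. With 6 arrays in 2 groups these coefficients mostly carry the difference between genotypes, and they describe the arrays only.

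The genes TLE proteins work with were examined next, from lists of factors that recruit them, of the repression machinery and of Wnt responses, together with layer VI and subplate markers as the neurons that carry Tle4. Of 103 measured genes, each by its brightest probe set, 0 were called higher and 10 lower in limma, while 3.18% of all named genes were called higher and 2.92% lower. At an unadjusted p under 0.05 the counts were 9 higher and 21 lower. The share of all named genes at that unadjusted threshold was not computed, so no unadjusted count here or below is read against a background. The median difference was -0.02, and over all named genes it was -0.02. Without wildtype replicate 3 the counts were 1 higher and 10 lower. Of the 10, 8 were layer VI and subplate markers. The others were Fezf2 and Axin2, so the 10 mostly describe that marker list and not the genes that work with TLE proteins. The lists were chosen with earlier results of these data known, so nothing is read from the counts against the shares of all named genes.

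Among recruiting factors, 1 gene fell. Fezf2, a zinc finger repressor that specifies subcerebral neurons and uses TLE corepressors, read 6.51, 6.62 and 6.50 in D6/Zbtb20S tissue and 7.71, 7.80 and 7.69 in wildtype tissue. The groups stood apart by more than 1 on the log2 scale, at -1.19 ± 0.08 (limma adjusted p = 0.000142). Besides it, 22 measured homeodomain, forkhead and zinc finger recruiters missed the threshold, and 14 of the 23 lay under the array median on every array. None of the 9 HES and HEY genes was called, with Hey2 at 0.47 ± 0.14 (adjusted p = 0.104) and Hes6 at -0.34 ± 0.10 (adjusted p = 0.123) nearest to it. Hey2 was among 3 of the 9 that lay under the array median on every array. Of those 9, 1 was higher and 1 lower at an unadjusted p under 0.05. Nor was any of 3 RUNX genes, with the RUNX partner Cbfb at 0.32 ± 0.10 and Runx3 at -0.09 ± 0.09, and 1 was higher and 0 lower at an unadjusted p under 0.05.

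Of the TCF/LEF and beta-catenin group 0 of 9 genes were called, with the TCF/LEF factor Lef1 at -0.19 ± 0.08 and beta-catenin, Ctnnb1, at 0.27 ± 0.08. In limma 1 was higher and 1 lower at an unadjusted p under 0.05. Of 14 Wnt response genes Axin2, a negative feedback regulator induced by Wnt signalling, fell. It read 5.40, 5.40 and 5.53 in D6/Zbtb20S tissue and 5.82, 5.99 and 6.12 in wildtype tissue (difference -0.53 ± 0.10, adjusted p = 0.0164), and its other probe set was not called. The other 13 Wnt response genes were not called, and the median difference of the list was -0.01. At an unadjusted p under 0.05 in limma, 3 of the 14 were higher and 3 lower, Axin2 among the latter. The repression machinery and its modifiers gave 0 calls in 12 genes. Usp47, a deubiquitinase of TLE proteins, was at 0.30 ± 0.07 (adjusted p = 0.0579), and Hdac1, a histone deacetylase of the complex, at -0.22 ± 0.07, which were the 1 higher and the 1 lower gene at an unadjusted p under 0.05. The other corepressors gave 0 calls in 19 genes, with 2 higher and 3 lower at an unadjusted p under 0.05. Atn1 was at -0.39 ± 0.10 and Tbl1x at -0.20 ± 0.07.

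The counts by brightest probe set leave out signal from dimmer ones. Of the 103 genes, 5 that were not called on the brightest probe set had another that was called higher: Ctnnb1, Tbl1x, Runx1t1, Rcor3 and Csnk2a1. Ctnnb1 was called higher on 1450008_a_at (0.43 ± 0.10) and 1430533_a_at (0.66 ± 0.10). Tbl1x, a subunit of the NCoR corepressor complexes, was called higher on 1434643_at (0.92 ± 0.12) and 1434644_at (1.34 ± 0.17), where its brightest probe set had a negative difference. These genes were named after their values were seen. They came from 252 probe sets of the 103 genes. The share of all named genes with such a probe set was not computed, so nothing is read from their number.

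Of 14 layer VI and subplate markers, 8 fell in D6/Zbtb20S tissue beside Tle4, 0 were called higher and 6 were not called, where 2.92% of all named genes were called lower. Since this list was chosen with earlier results of these data known, nothing is read from its count against that share. The median difference was -1.08, and at an unadjusted p under 0.05 0 were higher. The 6 with the largest differences were Tshz2 (-4.20 ± 0.13), a teashirt zinc finger factor of retrosplenial cortex, the nuclear receptor Nr4a2 (-3.34 ± 0.14), the cell cycle inhibitor Rprm (-2.29 ± 0.19), the transcriptional cofactor Zfpm2 (-2.12 ± 0.14), the heparan sulfate sulfotransferase Hs3st4 (-1.67 ± 0.09) and the neurotensin receptor Ntsr1 (-1.55 ± 0.14). Their limma adjusted p ran from 5.21e-06 for Tshz2 to 0.000535 for Ntsr1. Tshz2 and Nr4a2 are also on the list of markers of the dissected areas, so their fall is not particular to layer VI neurons. Tbr1 (-1.41 ± 0.12) and Ccn2 (-0.75 ± 0.09) were the other genes called lower. Of the 6 that were not called, Foxp2 (-0.59 ± 0.14, adjusted p = 0.0527), Cplx3, Nxph4 and Sox5 had negative differences, while Sulf1 (0.14 ± 0.08) and Syt6 (0.12 ± 0.10) had positive ones. In bulk tissue, fewer neurons of a kind and less RNA per neuron cannot be told apart, for Tle4 as for these markers.

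**Figure D4:**
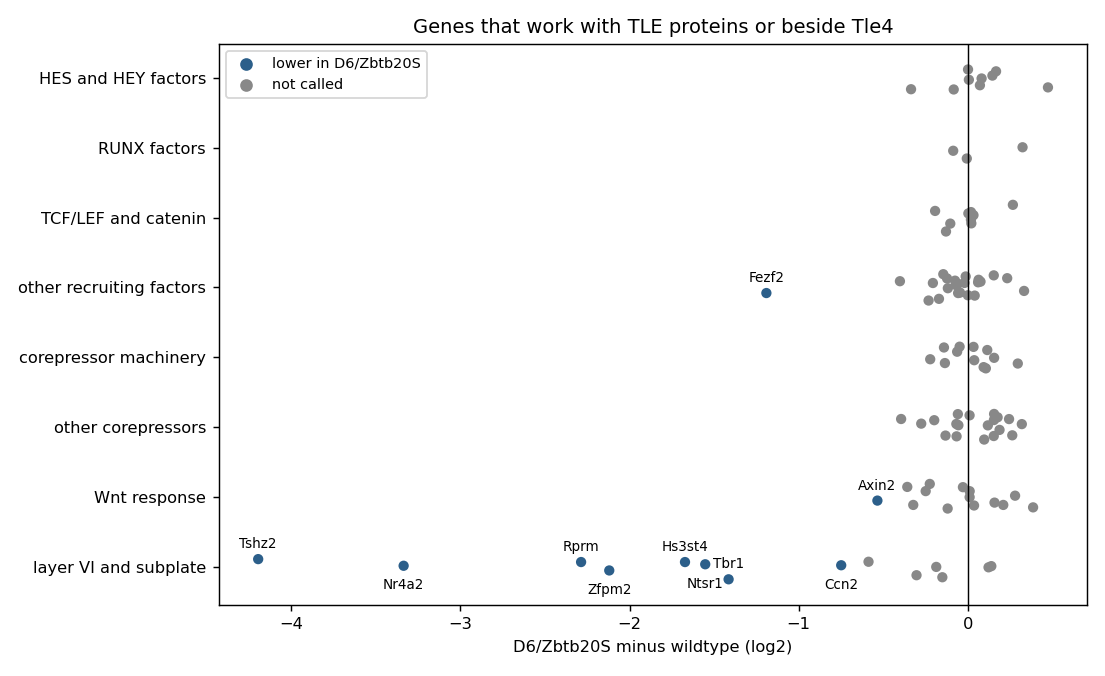
Differences between genotypes (D6/Zbtb20S minus wildtype, log2) of the 103 measured genes that TLE proteins work with or that mark layer VI and the subplate, by list. Points are genes by their brightest probe set, blue where called lower. The 10 blue points are Fezf2, Axin2 and 8 layer VI and subplate markers.

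Markers of other cells moved with the genotypes as well, and their part in the Tle differences was not tested. The marker lists were chosen with earlier results of these data known. Nothing is read from their counts against all named genes, of which 3.18% were called higher and 2.92% lower. Of 12 microglial genes Cx3cr1, Tyrobp and Ctss were called higher. The mean log2 signal over all 12 was 5.25 to 5.50 on D6/Zbtb20S arrays and 4.88 to 5.03 on wildtype arrays. At an unadjusted p under 0.05, 8 microglial genes were higher and 0 lower, 5 oligodendrocyte lineage genes were lower and 0 higher, and 4 GABAergic genes were lower and 0 higher. Of 9 oligodendrocyte lineage genes Olig1, Olig2, Cnp and Mbp were called lower. The means over all 9 were 5.46 to 5.54 in D6/Zbtb20S and 5.77 to 5.97 in wildtype tissue. Of 10 GABAergic genes 1 was called lower (means over the list 6.12 to 6.24 against 6.40 to 6.41). Of 9 endothelial and mural genes 1 was lower (means over the list 5.64 to 5.93 against 5.65 to 5.98). Radial glia and astrocyte, choroid plexus and meningeal, and erythroid lists gave 0 calls in 10, 9 and 4 genes in limma. At an unadjusted p under 0.05 only the first list held any, 1 higher and 1 lower. For the astrocyte gene Aqp4 of that list, 1 probe set other than the brightest was called. Of 8 markers of the dissected areas 7 were called lower, Tshz2 and Nr4a2 of the layer VI list among them. Of 8 CA1 markers 2 were called higher, Nectin3 and Man1a, and 1 lower, Satb1. At an unadjusted p under 0.05 in limma, 6 CA1 markers were higher and 1 lower. Of 7 cortical excitatory neuron markers Neurod2, Bcl11b and Camk2a were called higher and Tbr1 lower. No other probe set of Camk2a, Cx3cr1 or Cnp was called. Nor was any other of the GABAergic gene Gad1, the endothelial gene Slc2a1 or the area marker Slc17a6.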

How the data were processed

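Per the labels, RNA was labelled with biotin, and RMA and limma are named in the submitters' processing notes without version or order. The deposited table holds log2 values, 1 per probe set and array, which was read from their range. The scaling last applied is not known: array medians lay between 3.83 and 3.97. Without its 64 controls the table gave 45037 probe sets for testing. Symbols came from the platform annotation, and 34741 of 34945 named probe sets matched the GRCm38.p6 gene table, with 0 symbols changed. The brightest probe set of a gene, by its mean on the 6 arrays, stood for it in lists. Differences (D6/Zbtb20S minus wildtype) came from lmFit and eBayes of limma 3.58.1, run in R 4.3.3 (Benjamini-Hochberg over all probe sets), and ± after a difference is its moderated standard error. Figures were drawn with matplotlib 3.10.9. The fit was checked on simulated data. The number of arrays limits the precision.

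The members and the 8 partner and 10 marker lists were chosen with earlier results of these data known. All Tle probe sets are named. From each partner list the called genes are named, or the 6 with the largest difference, or, where none was called, the 2 with the smallest p. The 3 genes most correlated with each member are also named. Alternatives to the fit were an ordinary linear model, array weights, a replicate block, a variance trend on intensity and each array left out in turn. Alternatives to the values were quantile normalization, equal medians, dropping dim probe sets and averaging all probe sets per gene. Thresholds of 0.01 and 0.1 were also tried.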

Additional observations from a re-analysis of the deposited data

How the results depend on the processing

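Of the 12 Tle probe sets, 1450853_at (Tle4) and 1419655_at (Tle3) kept their direction and call in all 13 alternative fits at the 0.05 threshold, with ranges of -1.72 to -1.57 and 0.77 to 0.83. No called Tle difference changed sign. Tle probe sets called higher numbered 1 with the ordinary linear model, where both Tle1 probe sets and 1419654_at of Tle3 lost their call, and 2 when the probe sets of each gene were averaged (then counted as genes). Those called lower numbered 1 with that model (1450853_at of Tle4) and at the threshold of 0.01, 5 with array weights (Tle2 and Tle5 added), and 1 to 4 over the fits without 1 array. With each gene's probe sets averaged, Tle5 was called lower, as it was with equal array medians. Averaging did not change the values of Tle5, which has 1 probe set, and its difference stayed at -0.36. Partner genes called higher numbered 1 with an intensity trend, with the filter on dim probe sets and at the threshold of 0.1, 2 with quantile normalization, 4 with averaged probe sets, 5 with array weights and 0 to 2 without 1 array. Those called lower numbered 4 with the ordinary linear model. The cause of these shifts was not tested, except that the model drops the shared spread. Whether the replicate numbers pair the arrays is not known. Deviations of same-numbered arrays correlated at -0.03, 0.18 and 0.21. Arrays of different numbers were not compared, so these values cannot decide it. With the replicate block, 5 Tle probe sets were higher (1458512_at of Tle3 added) and 3 lower.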
